A study of Mus musculus with 6 samples.

Results

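The replication-dependent histone genes are the copies of H1, H2A, H2B, H3 and H4 that a dividing cell uses to package new DNA. The set described here holds the 70 symbols that begin with Hist1h, Hist2h, Hist3h or Hist4h and, for comparison, 10 histone variant genes (H2afx, H2afy, H2afy2, H2afz, H2afv, H2afj, H3f3a, H3f3b, H1f0 and H1fx), 80 of the 35186 symbols counted. Members were chosen by symbol alone, and no measured value was used. RNA was sequenced from memory B cells of C57BL/6J mouse spleen, sorted for binding the hapten NP. Both groups had 3 libraries of about 1000 cells each. One group (DKO) was labelled Nix-/-Bnip3-/-, lacking both of these mitophagy receptors, and the other (WT) was labelled wild type. The sources used here do not give the age of the mice, the part of each gene that was deleted or whether the deletion was limited to B cells. Nothing in the labels says that libraries were made from separate mice, so p-values measure the variation among these 6 samples alone, and that variation may be technical.

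Messenger RNAs of replication-dependent histones are the only known animal messages of nuclear genes that normally end without a poly(A) tail. They end shortly after a stem-loop, a short hairpin bound by the stem-loop binding protein SLBP, and they are made in S phase and destroyed when DNA synthesis stops. Variants such as H3.3 and H2A.Z are made throughout the cell cycle from ordinary polyadenylated messages, and resting cells rely on them. Some Hist genes are also known to make longer, polyadenylated transcripts in differentiated cells, and H2afx, which encodes the DNA damage histone H2A.X, can make both forms. Per the labels' protocols, the libraries were enriched for polyadenylated RNA, so the comparison between the classes bears on messages that such enrichment would leave behind or keep.

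The stem-loop that sets the classes apart was looked for in every annotated transcript of the table's genes (GENCODE mouse release 21, build mm10) on the transcript strand, as a first arm of GGNNCT, a loop of NTNN and a second arm of AGNNCC, with the 6 bases of the arms required to pair. It was found in 44 of 70 Hist genes (62.9%), in 1 of 10 variants (H2afx), and in 35 of 20404 other protein-coding genes (0.172%). The Hist genes without a match included 3 annotated as pseudogenes, and many models that end close to the coding sequence, where these letters cannot be seen. The sites of the members on which the results below turn are shown with 5 bases on either side, in the transcript's direction, and the capitals mark the stem and its loop.
Hist1h2be: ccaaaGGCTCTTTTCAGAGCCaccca
Hist1h1e: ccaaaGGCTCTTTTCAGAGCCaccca
Hist4h4: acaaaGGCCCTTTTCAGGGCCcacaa
Hist2h4: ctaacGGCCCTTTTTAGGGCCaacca
Hist1h2bf: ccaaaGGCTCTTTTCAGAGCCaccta
Hist1h2ad: acaaaGGCTCTTTTCAGAGCCatcca
Hist1h4f: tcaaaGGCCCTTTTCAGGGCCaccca
H2afx: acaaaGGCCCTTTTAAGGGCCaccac
On mm10 the stem-loops lay at chr13:23585531-23585546 (Hist1h2be, minus strand), chr13:23621782-23621797 (Hist1h1e, minus), chr6:136803998-136804013 (Hist4h4, minus), chr3:96262939-96262954 (Hist2h4, minus), chr13:23573765-23573780 (Hist1h2bf, minus), chr13:23574895-23574910 (Hist1h2ad, plus), chr13:23551291-23551306 (Hist1h4f, minus) and chr9:44335240-44335255 (H2afx, plus). All 8 were in exons. The letters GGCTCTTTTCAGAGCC were the most common form, in 26 genes of the H1, H2A, H2B and H3 families. The form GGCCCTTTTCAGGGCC was found in 7 genes, all of the H4 family.

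In 22 of the 44 Hist genes the longest annotated transcript past the stem-loop ended within 100 bases of it, as in Hist1h2bf (29 bases), Hist1h4f (33 bases) and Hist1h2ad (42 bases). In the other 22 it ran on for more than 100 bases. It ran on for 1153 bases in Hist1h1e, 1257 in Hist2h4, 1861 in Hist1h2be and 2445 in Hist4h4. H2afx ran on for 822 bases. The stem-loop therefore lay inside, not at the end of, the annotated transcript of the 4 Hist genes just named.

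The libraries were shallow, with total counts of 444461, 517057 and 514854 in DKO libraries 1, 2 and 3, and 312908, 500527 and 319863 in WT libraries 1, 2 and 3. Normalized CPM are counts divided by a library size, taken as the counts of tested genes times a TMM factor. TMM scaling matches libraries on the bulk of their genes. Its factors were 1.28 to 1.38 in DKO libraries and 0.695 to 0.812 in WT libraries. It made 1 count worth 1.84 to 2.26 normalized CPM in DKO libraries and 3.86 to 5.25 in WT libraries. All genes together therefore summed to 952000 to 1010000 normalized CPM in DKO and 1630000 to 1930000 in WT. A level in normalized CPM thus stands higher in WT, relative to DKO, than the share of all counts does. The libraries stood apart in 2 ways. At least 1 count was found for 67 to 70.4% of symbols in DKO libraries and for 50.7 to 52.5% in WT libraries. Spearman correlations across tested genes were 0.466 to 0.496 within DKO, 0.152 to 0.157 within WT and 0.135 to 0.203 between the groups. The targeted genes did not separate the groups. Bnip3l (Nix) had 10, 16 and 41 counts in DKO and 1, 8 and 0 in WT (log2 fold change 1.76, SE 1.19, edgeR adjusted p = 0.539), against the direction of its label. Bnip3 had 2, 24 and 11 in DKO and 25, 62 and 6 in WT (-2.50, SE 1.13, edgeR adjusted p = 0.412). Counts are over whole genes, so RNA outside a deleted part would still be counted, and DKO and WT below mean the libraries labelled so. All 10 B cell markers had counts, unevenly. Ms4a1 (CD20) had 42, 70 and 65 counts in DKO and 28, 0 and 8 in WT, while Cd79a, a subunit of the B cell receptor, had 0, 2 and 4 in DKO and 3, 0 and 0 in WT. Together the 10 had 258 to 333 normalized CPM in DKO and 226 to 452 in WT.

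Levels in this table are not those of a usual B cell transcriptome, which bears on every level below. In genes picked after their values were seen, Actb (beta-actin) had 0, 2 and 3 counts in DKO and 0 in each WT library, and Igkc, the kappa light chain constant gene, had 0, 2 and 0 in DKO and 0, 1 and 0 in WT. Alb, the albumin gene of liver, had 27, 14 and 8 in DKO and 0, 7 and 9 in WT. The 76 ribosomal protein genes had 34.7 counts per kb of exon over the 6 libraries, beside 24.2 for all protein-coding genes. Mitochondrial mt-Co1 was the most counted of the single genes picked, with 3640, 2463 and 1643 counts in DKO and 8138, 13602 and 2713 in WT. Across 20481 protein-coding genes, which are not independent replicates, the summed counts had a Spearman correlation of 0.603 with exonic length and 0.583 with the gene's span, introns included. A low count of a short gene is therefore not shown to be a low message level in the cells.

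Replication-dependent histone genes had few counts in all 6 libraries. The 70 genes together had 57, 113 and 129 counts in DKO libraries 1, 2 and 3 and 30, 34 and 105 in WT libraries 1, 2 and 3. Their share of all counts averaged 0.0199% ± 0.00634 in DKO and 0.0164% ± 0.0143 in WT (SD, n = 3 each). The lowest share was 0.00679% in WT library 2 (95% exact binomial interval 0.0047 to 0.00949%) and the highest was 0.0328% in WT library 3 (0.0268 to 0.0397%), so the groups overlapped. Such intervals hold counting error alone, as copies made by amplification are counted as separate reads. Fewer cells with these messages and less message per cell cannot be told apart in such bulk samples.

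The 10 variants held about as many counts as the 70 replication-dependent genes. They had 65, 143 and 156 counts in the DKO libraries and 49, 121 and 21 in the WT libraries, or 0.0242% ± 0.00839 of all counts in DKO and 0.0155% ± 0.00881 in WT (SD, n = 3 each). The variant share ran from 0.00657% in WT library 3 (0.00406 to 0.01%) to 0.0303% in DKO library 3 (0.0257 to 0.0354%). Within each library, the variants' sum divided by the replication-dependent sum was 1.14, 1.27 and 1.21 in DKO and 1.63, 3.56 and 0.2 in WT. The ratio was close to even in the 3 DKO libraries and spread widely among the WT libraries, with WT library 3 on the other side of 1. On the log2 scale the ratio averaged 0.27 ± 0.075 in DKO and 0.072 ± 2.15 in WT.

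**Figure D1:**
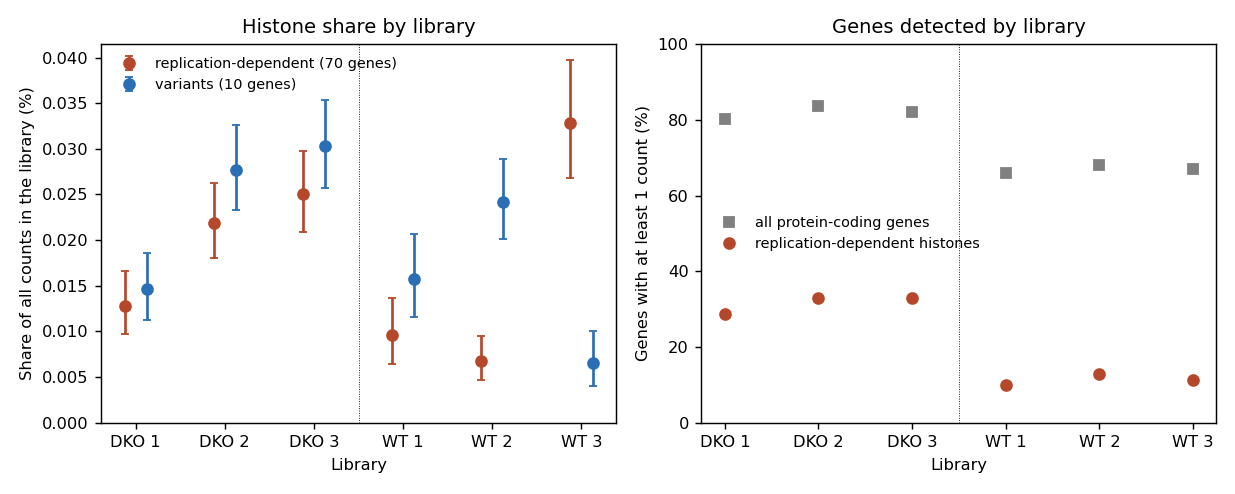
Left, the share of all counts (%) held by the 70 replication-dependent genes and the 10 variants in each library, with 95% exact binomial intervals. Right, the percent of genes with at least 1 count. Replication-dependent genes were detected at 28.6 to 32.9% in DKO libraries and 10 to 12.9% in WT libraries, below protein-coding genes in every library. They are shorter (median exonic length 0.532 kb, beside 3.56 kb for protein-coding genes), and the sets were not matched for length.

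Per gene and per length the classes differed in level in the summed counts. Summed over the 6 libraries, variants had 21.9 counts per kb of exon and replication-dependent genes 6.94 counts per kb, beside 24.2 counts per kb for all 20481 protein-coding genes. The median gene had 18.5 counts per kb among the variants, 2.57 among the replication-dependent genes and 12.8 among all protein-coding genes. The median total was 44 counts for a variant, 1.5 for a replication-dependent gene and 46 for a protein-coding gene. Their median exonic lengths were 1.94, 0.532 and 3.56 kb, and the totals were not matched for length. Of the 70 replication-dependent genes, 26 had no count, 30 had 1 to 9 counts and 14 had 10 or more. Of the 10 variants, 1 (H1fx) had no count, 3 had 1 to 9 and 6 had 10 or more. The order per length did not hold in every library. In WT library 3 it turned, with 105 counts over 67.47 kb of exon in the replication-dependent genes and 21 over 25.36 kb in the variants. Where a gene had no count, counting error alone would allow up to 3 counts at 95% confidence. That is 5.52 to 6.79 normalized CPM in a DKO library and 11.6 to 15.8 in a WT library. Libraries of a group differed by more than that, as in Hist1h1e with 0, 0 and 47 counts in WT, so more could have been missed.

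More of the replication-dependent genes were seen in the DKO libraries. At least 1 count was found for 20, 23 and 23 of the 70 genes in DKO libraries 1, 2 and 3 and for 7, 9 and 8 in WT libraries 1, 2 and 3. Of the 44 genes with a count, 26 had counts in DKO libraries only, 2 in WT libraries only and 16 in both. The same direction held for genes in general, since 80.3 to 83.5% of protein-coding genes had a count in the DKO libraries and 66 to 68% in the WT libraries. The part played by that difference, and by depth, was not tested.

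Genes annotated past their stem-loop held more of the replication-dependent counts than the other sets, but not per length. The 22 genes with over 100 annotated bases past it had 270 of the 468 counts (57.7%), the 22 that end within 100 bases had 79 (16.9%) and the 26 without a match had 119 (25.4%). Per kb of exon these were 6.98, 7.09 and 6.73 counts, as the sets had 38.66, 11.14 and 17.68 kb of exon in all. The median exonic length was 1255 bases in the first set, 483.5 in the second and 408 in the third. The second set, with the classical end, had 6, 54 and 15 counts in DKO libraries 1, 2 and 3. It had 1, 2 and 1 in WT libraries 1, 2 and 3. These raw counts do not overlap (75 in DKO and 4 in WT in all). As shares of all counts, the exact interval of DKO library 1 (0.000495 to 0.00294%) overlapped those of all WT libraries (upper ends 0.00178, 0.00144 and 0.00174%). DKO library 3 (0.00163 to 0.00481%) overlapped WT libraries 1 and 3, and DKO library 2 (0.00785 to 0.0136%) lay above every WT interval. Of all symbols, 8.43% had groups that did not overlap after scaling, with DKO higher. The split by annotated end was chosen after values were seen. Most of the 54 counts in DKO library 2 came from 3 genes, described below. The first set had 36, 41 and 71 counts in DKO and 18, 3 and 101 in WT, which overlap. It held 49.5% of the replication-dependent counts in DKO and 72.2% in WT, and 46.6% of those in all libraries but WT library 3.

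**Figure D2:**
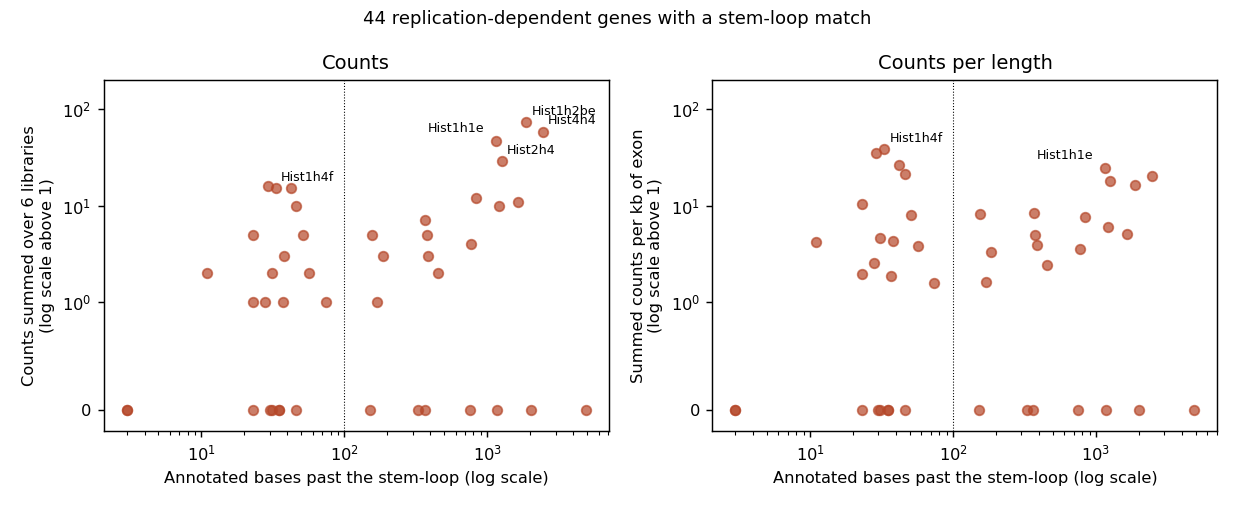
Each point is 1 of the 44 replication-dependent genes with a stem-loop. The x axis is the number of annotated bases past it (log scale, dotted line at 100), and the y axis is the counts summed over 6 libraries (left) or those counts per kb of exon (right), on a scale that is logarithmic above 1. Hist1h2be, Hist4h4 and Hist1h1e stand highest on the left, and Hist1h4f, which ends 33 bases past its stem-loop, stands highest on the right.

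Summed over the 6 libraries, H2B genes held the most counts of the families (197), but H4 genes and linker H1 genes held more in WT. The 19 H2B genes had 21, 50 and 81 counts in DKO and 12, 23 and 10 in WT, the 13 H4 genes had 15, 36 and 17 in DKO and 14, 2 and 43 in WT, and the 20 H2A genes had 8, 20 and 18 in DKO and 1, 3 and 4 in WT. The 6 H1 genes had 7, 6 and 3 in DKO and 0, 6 and 48 in WT. The 12 H3 genes had only 6, 1 and 10 counts in DKO and 3, 0 and 0 in WT. Counts per kb were 11.7 for H4, 9.61 for H2B, 5.26 for H1, 4.16 for H2A and 2.04 for H3. Exons of each of the 20 H2A genes are overlapped on the other strand by another annotated gene. In the other Hist families this holds only for Hist2h2bb, Hist2h3b and Hist1h4b. Whether counting used the strand is not stated, so the H2A level may not be comparable with those of the other families. Coding sequences within a family are nearly identical, and the sources used here do not say how reads matching several genes were treated. Counts of single Hist genes are therefore uncertain. If such reads were dropped, the sums and levels of the replication-dependent class given above would be too low as well.

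Hist1h2be, an H2B gene of chromosome 13 (23583670 to 23621124), had the most summed counts of the replication-dependent genes (73) and was the 1 of 70 kept by the filter on low counts. It had 10, 16 and 38 counts in DKO libraries 1, 2 and 3 and 2, 0 and 7 in WT libraries 1, 2 and 3. These were 41.9 ± 27.7 normalized CPM in DKO and 15.7 ± 18.9 in WT (SD, n = 3 each). After scaling, WT library 3 lay above DKO libraries 1 and 2, so the groups overlapped. DKO over WT, this came to a log2 fold change of 1.44 (SE 1.20) and an edgeR adjusted p of 0.624. It came to 3.12 without WT library 3 and 0.86 without WT library 2. Its annotated exons overlap those of Hist1h1e on the same strand, and the 2 gene spans share 496 bases.

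Hist1h1e and Hist4h4 show how single libraries carried single genes. Hist1h1e, a linker histone gene, had 0 counts in each DKO library and 0, 0 and 47 in WT libraries 1, 2 and 3. Hist4h4, the only Hist gene on chromosome 6 (136801553 to 136804415), had 4, 10 and 2 counts in DKO and 0, 0 and 42 in WT. Together they made up 89 of the 105 replication-dependent counts of WT library 3 (84.8%). Without them that library had 16 counts, and the share averaged 0.0188% in DKO and 0.00713% in WT. Neither gene passed the filter. With no filter, Hist1h1e was called (edgeR adjusted p = 0.0478), lower in DKO, on the counts of 1 library. It was 1 of 53 members tested in that fit, where 130 of 31134 genes were called (0.418%), 108 of them lower in DKO (0.347%).

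A group of 3 genes on chromosome 13 was counted in DKO library 2 almost alone. Hist1h2bf, an H2B gene (23573736 to 23574196), had 0, 16 and 0 counts in DKO libraries 1, 2 and 3 and 0 in each WT library. Hist1h2ad, an H2A gene (23574381 to 23574952), had 0, 14 and 0 in DKO and 0, 0 and 1 in WT. Hist1h4f, an H4 gene (23551258 to 23551648), had 0, 15 and 0 in DKO and 0 in each WT library. Hist1h2bf and Hist1h2ad lie 184 bases apart on opposite strands with no other member between them. Hist1h4f lies 22087 bases from Hist1h2bf, with 4 members between. These 3 genes made up 45 of the 54 counts of classical-end genes in DKO library 2, which had 9 without them.

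Other Hist genes with 10 or more counts were spread over libraries to different degrees. Hist2h2be, an H2B gene, was the 1 Hist gene with counts in all 6 libraries, with 2, 9 and 17 in DKO and 9, 4 and 3 in WT. Hist1h2bc had 0, 0 and 12 in DKO and 1, 18 and 0 in WT, and Hist2h4 had 5, 0 and 10 in DKO and 13, 1 and 0 in WT. Neither of these separated the groups. Hist1h2aa, which in mice is known from testis, had 2, 2 and 9 counts in DKO and 0 in each WT library. Hist2h3c2, an H3 gene, had 2, 1 and 2 counts in DKO and 0 in each WT library. These were the 2 of 70 Hist genes whose groups did not overlap after scaling, both with DKO higher, beside 8.43% of all 35186 symbols, and neither passed the filter. None was lower, beside 3.52% of all symbols. Of the 14 Hist genes with 10 or more counts, 9 had over 50% of them in 1 library (64.3%), beside 3 of 6 variants (50%) and 41.8% of all 22476 symbols with 10 or more counts.

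**Figure D3:**
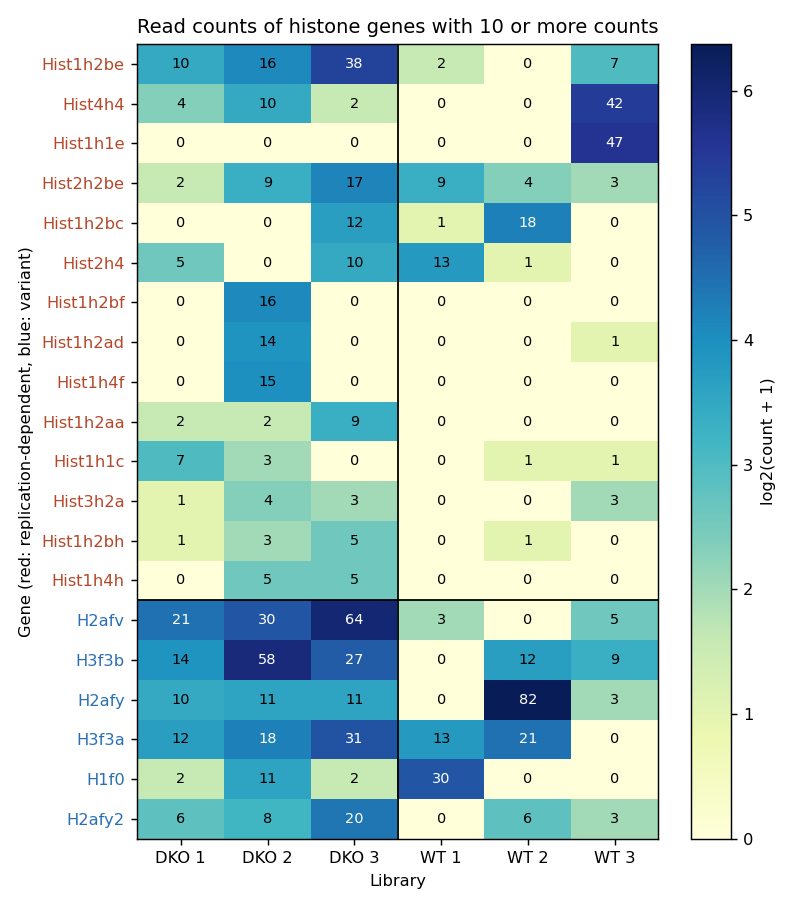
Read counts of the 14 replication-dependent genes (red names) and 6 variants (blue names) with 10 or more counts over the 6 libraries, with the count printed in each cell and colour on a log2(count + 1) scale. Hist1h1e and Hist4h4 are dark in WT library 3, and Hist1h2bf, Hist1h2ad and Hist1h4f in DKO library 2.

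Of the variants, H2afv was the 1 whose DKO and WT libraries did not overlap. H2afv encodes one of the H2A.Z histones, which mark promoters. The gene, on chromosome 11 (6427229 to 6444443), had 21, 30 and 64 counts in DKO libraries 1, 2 and 3 and 3, 0 and 5 in WT libraries 1, 2 and 3. All 3 DKO libraries lay above all 3 WT libraries after scaling, at 75.6 ± 42.1 normalized CPM in DKO and 14.0 ± 13.2 in WT (SD, n = 3 each). The log2 fold change was 2.45 (SE 1.19), with an unadjusted p of 0.0626 and an edgeR adjusted p of 0.419, so it did not pass the test. It ran from 1.87 without WT library 2 to 3.38 without WT library 3. It was 1 of 5 tested members whose groups did not overlap with DKO higher, beside 12.8% of all tested genes (6.39% with DKO lower). H2afz, which encodes the other H2A.Z histone and is usually the more abundant of the pair, had 0, 0 and 1 counts in DKO and 3, 0 and 0 in WT, as few as Actb.

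The genes of the replacement histone H3.3 did not separate the groups. H3f3a (chromosome 1, 180800832 to 180813943) had 12, 18 and 31 counts in DKO and 13, 21 and 0 in WT, or 40.1 ± 17.5 normalized CPM in DKO and 49.7 ± 43.5 in WT. DKO over WT, the log2 fold change of H3f3a came to -0.32 (SE 1.16, edgeR adjusted p = 0.931), and its sign turned in 6 of 15 alternative fits, among them that with library totals alone (0.48). H3f3b (chromosome 11, 116021912 to 116027962) had 14, 58 and 27 counts in DKO and 0, 12 and 9 in WT, or 63.6 ± 38.8 normalized CPM in DKO and 31.2 ± 27.0 in WT. For H3f3b it came to 1.01 (SE 1.16, edgeR adjusted p = 0.726), with 0.51 when WT library 1 was left out. Exons of H3f3a are overlapped on the other strand by the antisense gene H3f3aos and by Gm17275. Exons of H2afx, H2afy, H2afy2, H2afj, H1f0 and H1fx are also overlapped on the other strand by another annotated gene. Whether counting used the strand is not stated in the labels, so reads of such overlapping genes cannot be told apart. The levels of these variants may therefore not be comparable with those of other genes.

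The macroH2A genes, whose products carry a large extra domain and are linked to silent chromatin, lay in both directions. H2afy (chromosome 13, 56073619 to 56136361) had 10, 11 and 11 counts in DKO and 0, 82 and 3 in WT. Its DKO libraries were close to each other at 21.4 ± 1.19 normalized CPM, while the WT libraries had 110.9 ± 178.6, most of it from WT library 2. DKO over WT, the log2 fold change came to -2.37 (SE 1.44, edgeR adjusted p = 0.495). Without WT library 2 it no longer passed the filter, and the fit by limma-voom with quality weights gave 0.19. H2afy2 had 6, 8 and 20 counts in DKO and 0, 6 and 3 in WT, with groups that overlapped.

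The replacement linker histone gene H1f0, known to accumulate in cells that stop dividing, had 2, 11 and 2 counts in DKO and 30, 0 and 0 in WT, so its WT counts came from 1 library. H1fx, the other linker variant, had no count in any library, and its exons are overlapped by another annotated gene on each strand. H2afx had 0, 4 and 0 counts in DKO and 0 in each WT library. H2afj, a replication-independent H2A gene, had 0, 3 and 0 in DKO and 0, 0 and 1 in WT.

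Per kb of exon, the order of the variants was not the same in DKO, where H2afv led, and in WT, where H1f0 led. H2afv had 46.3 ± 25.8 normalized CPM per kb in DKO and 8.56 ± 8.09 in WT. H3f3b followed with 21.4 ± 13.0 in DKO and 10.5 ± 9.08 in WT, then H1f0 with 4.65 ± 4.51 in DKO and 25.4 ± 44 in WT, H3f3a with 11.5 ± 5.0 in DKO and 14.2 ± 12.4 in WT, and H2afy with 3.14 ± 0.174 in DKO and 16.3 ± 26.2 in WT. The mean levels of these 5 genes over both groups were 27.4, 15.9, 15.0, 12.8 and 9.71 normalized CPM per kb, and neighbours in this order lay within 1 SD of each other in at least 1 group. H2afy2 followed at 8.12, while H2afz, H2afj and H2afx had 1.65, 0.98 and 0.89. Of the Hist genes, Hist1h2be had 9.42 ± 6.22 normalized CPM per kb in DKO and 3.54 ± 4.26 in WT, while Hist1h1e had 0 in DKO and 42.6 ± 73.8 in WT, and Hist4h4 had 3.65 ± 2.57 in DKO and 25.7 ± 44.5 in WT.

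**Figure D4:**
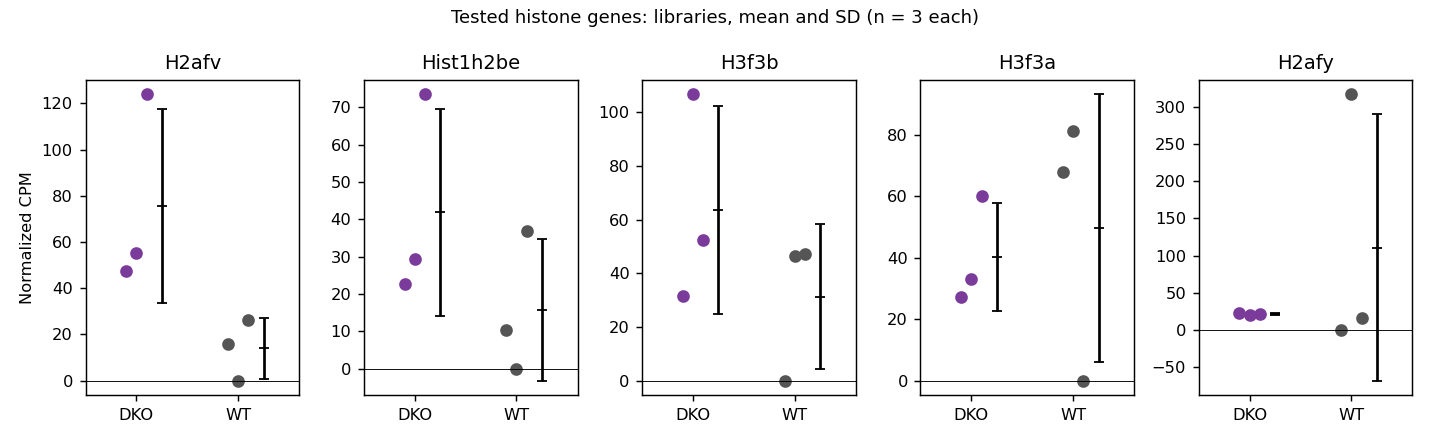
Normalized CPM of the 5 histone genes that were tested, with 1 point per library, DKO left of WT, and the mean ± SD beside the points (n = 3 each). In H2afv the 3 DKO libraries lie above the 3 WT libraries, and in H2afy 1 WT library at 317 lies far above all others.

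None of the 5 tested members (Hist1h2be, H2afv, H3f3a, H3f3b and H2afy) was called between DKO and WT by edgeR's quasi-likelihood test at an adjusted p of 0.05. At an unadjusted p under 0.05 there were also 0 members, and DESeq2 and limma-voom each called 0. DESeq2 had 2 of the 5 at an unadjusted p under 0.05, beside 21.8% of all genes in that fit. Over the whole table edgeR called 0 of 8895 tested genes (0%), while 5.49% were higher and 6.59% lower in DKO at an unadjusted p under 0.05. The median over all tested genes was a log2 fold change of -0.17 with TMM scaling and 0.62 with library totals alone, and each value above is to be read against that median.

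Genes that make, bind and remove histone messages showed no called difference. Of 13 tested genes of histone 3' end processing, 8 lay above and 5 below a log2 fold change of 0 (median 0.40), and 0 had an unadjusted p under 0.05. Slbp, named after its values were seen, had 15, 31 and 44 counts in DKO and 1, 1 and 24 in WT (log2 fold change 0.40, SE 1.23). Lsm11, a subunit of the U7 particle that guides the cut after the stem-loop, had 342, 11 and 17 counts in DKO and 12, 9 and 2676 in WT (-4.10, SE 2.68), so its value rested on WT library 3. Sympk, the scaffold of the cleavage complex, was at -1.22 (SE 0.87), the cleavage factor gene Cpsf2 at 1.39 (SE 1.08) and the cap-binding gene Ncbp2 at 1.51 (SE 1.35). Of 7 tested genes of histone message decay, 2 lay above 0 and 5 below (median -1.24). At an edgeR unadjusted p under 0.05, 0 were higher and 1 (Dcp2) was lower, beside 5.49% and 6.59% of all tested genes. The decapping gene Dcp2 had 4, 8 and 28 counts in DKO and 8, 41 and 50 in WT (-2.55, SE 1.10, edgeR adjusted p = 0.404). The uridylyltransferase genes Zcchc6 and Zcchc11 were at -1.69 (SE 1.08) and 1.01 (SE 0.91), and the helicase gene Upf1 at -1.24 (SE 1.01).

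Of 17 tested histone chaperone genes, 7 lay above 0 and 10 below (median -0.33). At an edgeR unadjusted p under 0.05, 0 were higher and 1 was lower, beside 5.49% and 6.59% of all tested genes. That gene was Hjurp, the chaperone of the centromeric H3, with 16, 20 and 30 counts in DKO and 70, 33 and 471 in WT (log2 fold change -4.49, SE 1.62, edgeR adjusted p = 0.390). Anp32e, which removes H2A.Z from chromatin, had 17, 48 and 31 counts in DKO and 0, 3 and 5 in WT (2.28, SE 1.14, edgeR adjusted p = 0.422). Rbbp4, which binds H3 and H4, was at 1.46 (SE 0.91), and Chaf1b, of the complex that loads H3 and H4 behind the fork, at -2.11 (SE 1.27).

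Replication genes, which are active in the same phase as the Hist genes, lay on both sides. Of 13 tested S phase genes 7 lay above 0 and 6 below (median 0.70). At an edgeR unadjusted p under 0.05, 2 were higher and 2 lower, beside 5.49% and 6.59% of all tested genes. Prim1, a primase subunit, had 57, 78 and 93 counts in DKO and 3, 9 and 4 in WT (log2 fold change 2.63, SE 0.94), and Mcm6, a subunit of the replicative helicase, 21, 39 and 92 in DKO and 3, 4 and 5 in WT (2.36, SE 1.00). Lig1, the ligase that joins Okazaki fragments, had 5, 6 and 14 counts in DKO and 12, 79 and 46 in WT (-3.60, SE 1.07). Mcm5, of the same helicase as Mcm6, had 3, 7 and 20 in DKO and 121, 24 and 12 in WT (-3.72, SE 1.27). The edgeR adjusted p was 0.390 for Prim1, Lig1 and Mcm5 and 0.403 for Mcm6.

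Of the 12 RNAs listed as ending without an ordinary poly(A) tail, only 2 were among the symbols counted. Malat1, whose end is folded into a triple helix, had 92, 71 and 211 counts in DKO and 53, 10 and 8 in WT (log2 fold change 1.07, SE 1.11). Neat1, whose long form ends the same way and whose short form is polyadenylated, had 277, 316 and 475 counts in DKO and 109, 61 and 75 in WT (0.83, SE 1.27). After scaling, the groups of Neat1 did not overlap, with DKO higher, beside 12.8% of all tested genes, while those of Malat1 overlapped. Neither gene passed the test (edgeR adjusted p = 0.697 for Malat1 and 0.800 for Neat1).

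Markers of other cell types were counted beside the histone genes. After scaling, all genes together summed to 952000 to 1010000 normalized CPM in DKO and 1630000 to 1930000 in WT. The sums below, like the normalized CPM levels above, are to be read beside that. The 8 germinal centre markers, of cells that divide fast, had 87.2 to 163 normalized CPM in DKO and 214 to 263 in WT. These sums do not overlap, but the raw counts do (72, 67 and 45 in DKO, 41, 68 and 47 in WT). Of the 3 germinal centre markers tested by edgeR, 0 had an unadjusted p under 0.05. The 7 erythroid markers had 14.7 to 29.1 normalized CPM in DKO and 58 to 120 in WT, and these sums do not overlap either. Their raw counts were 10, 8 and 15 in DKO and 23, 15 and 17 in WT, and 2 of the 7 were at 0 in every library. The 5 monocyte and macrophage markers counted had 366 to 763 in DKO and 41.8 to 252 in WT, which do not overlap in the other direction. Of these, Lyz2 (log2 fold change 3.15, SE 1.31) and Itgam (2.41, SE 1.14) lay above 0, Csf1r (-0.89, SE 1.27) and Spic (-1.27, SE 0.99) lay below, and Cd68, not tested, had groups that overlapped. The 6 neutrophil markers had 127 to 1230 in DKO and 178 to 389 in WT, the 8 T cell markers 143 to 225 in DKO and 188 to 987 in WT, the 6 plasma cell markers counted 60 to 344 in DKO and 94 to 273 in WT, and the 9 memory B cell markers 165 to 240 in DKO and 30.9 to 632 in WT. The part of these markers in the histone values was not tested.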

How the data were processed

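The authors deposited raw counts of reads for each gene symbol in 1 table, with no normalization. CASAVA, STAR, edgeR, R 3.6.3 and mm10 are named, without roles, per the submitters' processing notes. The sources used here do not give the counting tool, strand setting, annotation release or treatment of reads matching several genes. Columns were matched to samples by name, and 0 were left unmatched. Depth was 312908 to 517057 counts per library. The test over all 6 libraries used edgeR 4.0.16 in R 4.3.3 (with limma 3.58.1): filterByExpr (minimum count 10), TMM, robust quasi-likelihood F test of DKO against WT with no covariate, and Benjamini-Hochberg adjustment over the 8895 genes kept (threshold 0.05). Dividing a log2 fold change by the root of its F statistic gave its standard error. Same-numbered libraries were checked for pairing: the correlations of their deviations from the group means were 0.024, 0.0308 and 0.0379, and the numbers were not used to pair. Positions, exonic lengths and stem-loops are from GENCODE mouse release 21 (mm10) by symbol, which matched 31032 of 35186 symbols and all 80 members. Intervals are exact (scipy 1.17.1, Python 3.11.15). Named were all variants, Hist genes kept by the filter, the 6 most counted Hist genes, members with an unadjusted p under 0.05 or groups that do not overlap, and up to 4 tested genes with the smallest p of each pathway list; other Hist genes, Slbp, the abundant messages and the split by annotated end were chosen after values were seen. Members and lists were chosen with earlier results of these data known. The edgeR steps were tested on simulated data. Alternatives were other scalings, filters, DESeq2 1.42.0, limma-voom, a replicate block and each library left out.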

Additional observations from a re-analysis of the deposited data

How the results depend on the processing

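The count of histone members called was 0 with TMM and was 0 with the size factors of DESeq2, TMMwsp, library totals alone, a mean CPM of at least 10, DESeq2, limma-voom, an adjusted p of 0.1 and each library left out in turn. It was 1 (Hist1h1e) with no filter on low counts, where 53 members were tested. With the replicate block it was 0; the numbers share only a label, and the block also called 0 of all genes. Over the whole table edgeR called 0 genes, DESeq2 601 (218 higher, 383 lower) and edgeR with no filter 130. H2afv, H3f3b and Hist1h2be had values above 0 in all 15 alternatives each. H3f3a turned above 0 with library totals alone (0.48), limma-voom (1.05), the replicate block (0.037), without WT library 1 (0.024), without WT library 2 (0.28) and without DKO library 1 (0.014), and H2afy with limma-voom (0.19); the cause was not tested. Leaving out 1 library at a time, H3f3a ran from -0.816 to 0.283. With 1 library left out, the difference of DKO minus WT in the replication-dependent share ran from -0.0013 to 0.0117 percentage points, that of the variant share from 0.00428 to 0.0135, and that of the log2 ratio of variants to replication-dependent genes from -1.0 to 1.07. Each stayed within 1 replicate SD of the reported value under the other alternatives too; the variant share difference was smallest without H2afv (0.00192). The alternatives without Hist4h4 and Hist1h1e, or by annotated end, were chosen after seeing the data. Most Hist genes rest on few counts, and at this depth counting error alone would allow up to 3 where a library had 0. The variation among libraries would allow more.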

Other observations

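Some histone symbols outside the rule, picked after their values were seen, also had counts. H3f3c, annotated as a processed pseudogene of the H3.3 family on chromosome 2 (119665626 to 119666036), had 4, 51 and 70 counts in DKO libraries 1, 2 and 3 and 0 in each WT library, but was not kept by the filter. The pseudogenes H3f3a-ps1 and H3f3a-ps2 had 10, 2 and 8 and 3, 23 and 12 counts in DKO, and 1, 1 and 0 and 8, 3 and 0 in WT. Reads of such copies can belong to H3f3a or H3f3b, and the sources used here do not say how they were assigned. The antisense gene H3f3aos had 10, 12 and 16 counts in DKO and 0, 2 and 25 in WT.

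Histone genes known from germ cells had counts in 1 to 3 libraries each. H1foo, the oocyte linker histone gene, had 15, 0 and 0 counts in DKO and 0 in each WT library. Hils1, a spermatid linker histone gene, had 0, 33 and 3 in DKO and 0, 1 and 0 in WT. H2afb1 had 24, 1 and 0 in DKO and 0 in each WT library, and H1fnt, a testis linker histone gene, had 0 in each DKO library and 7, 0 and 0 in WT. Cenpa, the centromeric H3 that Hjurp carries, had 20, 12 and 30 counts in DKO and 2, 47 and 7 in WT (log2 fold change -0.88, SE 1.10, edgeR adjusted p = 0.750).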
